A study of Homo sapiens with 14 samples.

Results

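The gene group described here consists of 10 early response genes that were chosen by name: the zinc finger factors EGR1, EGR2 and EGR3, the nuclear receptors NR4A1, NR4A2 and NR4A3, the serum response factor SRF, and IER2, IER3 and CSRNP1. They were read by symbol from the 23040 genes in the deposited files, and all 10 were found. Total RNA was sequenced from Panc-1 and AsPC-1, which are established lines of human pancreatic cancer. After serum starvation the cells received epidermal growth factor (EGF, 50 ng/ml) or angiogenin (ANG, 1 µg/ml), a secreted ribonuclease also called RNase5 and described by the series title as an EGF receptor (EGFR) ligand. Cells were collected after 1, 5 or 24 h, and each line had 1 untreated (mock) library whose collection time is not in the labels. The 7 conditions in each line were all serum-starved and each had 1 library, so the comparisons of ligand and time rest on the agreement of 2 lines. Nothing in the labels gives a repeat within a line, and p-values cover the spread among these libraries alone.

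Immediate-early genes are transcribed within minutes of growth factor stimulation, from factors already present in the cell, and their transcripts are short-lived. In the textbook route from EGFR, the kinase ERK phosphorylates ETS-family partners of SRF, which together occupy CArG boxes (serum response elements), while downstream kinases phosphorylate CREB, which binds cyclic AMP elements. EGR1, EGR2 and EGR3 bind GC-rich DNA, the NR4A proteins are nuclear receptors that act without a known hormone, and SRF is itself an early gene as well as a regulator of others. IER2 encodes a nuclear protein, IER3 is linked to cell survival and stress signalling, and CSRNP1 encodes a nuclear protein rich in cysteine and serine.

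Depth, estimated from the steps between low values, was 11.2 to 16.9 M reads in Panc-1 and 18.9 to 23.9 M in AsPC-1. A single read in a transcript of 2 kb was then worth 0.0209 to 0.0447 RPKM (reads per kilobase of transcript per M mapped reads). The epithelial markers KRT18 (313 to 523 RPKM) and KRT19 (317 to 433) were abundant in Panc-1, where EPCAM was low (4.88 to 5.58). All 3 were abundant in AsPC-1, with KRT18 at 673 to 892 RPKM, KRT19 at 362 to 522 and EPCAM at 149 to 230. The leukocyte markers PTPRC and CD3E did not exceed 0.05 RPKM, whereas LYZ reached 93.8 to 503 RPKM and the matrix gene LUM 26.5 to 46.3 RPKM in AsPC-1. In such bulk RNA, fewer expressing cells and less RNA per cell cannot be told apart.

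The promoter sequences below are shown because the textbook inputs to these genes, SRF and CREB, have short defined binding sequences. RefSeq windows reaching from 250 bases before to 50 bases after a transcription start (assembly GRCh38.p14) were at hand for 7 of the 10 genes, with 12 starts in all. EGR3, NR4A2 and IER3 were not matched, so a motif check over the group is void and each gene is described alone. Sequences run 5′ to 3′ on the gene's strand, and capitals mark CArG boxes and the short cyclic AMP element TGACG, which appears as CGTCA where it lies on the other strand. The windows are EGR1 (chr5:138465229-138465528, plus strand), EGR2 at its start 1 (chr10:62816317-62816616, minus strand), SRF at its start 1 (chr6:43171019-43171318, plus strand), NR4A3 (chr9:99821635-99821934, plus strand) and CSRNP1 at its start 1 (chr3:39153542-39153841, minus strand).
EGR1: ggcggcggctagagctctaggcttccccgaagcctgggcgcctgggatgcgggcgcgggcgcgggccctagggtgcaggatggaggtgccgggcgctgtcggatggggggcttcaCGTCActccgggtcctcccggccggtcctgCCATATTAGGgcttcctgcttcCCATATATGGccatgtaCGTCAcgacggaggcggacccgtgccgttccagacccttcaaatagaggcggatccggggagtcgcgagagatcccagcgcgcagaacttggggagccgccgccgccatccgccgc
EGR2: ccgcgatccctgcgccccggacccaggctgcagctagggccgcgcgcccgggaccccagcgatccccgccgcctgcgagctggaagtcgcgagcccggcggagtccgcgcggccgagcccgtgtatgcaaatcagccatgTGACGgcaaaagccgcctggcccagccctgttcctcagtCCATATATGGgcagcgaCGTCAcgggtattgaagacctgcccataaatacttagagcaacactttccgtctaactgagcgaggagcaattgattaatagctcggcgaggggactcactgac
SRF: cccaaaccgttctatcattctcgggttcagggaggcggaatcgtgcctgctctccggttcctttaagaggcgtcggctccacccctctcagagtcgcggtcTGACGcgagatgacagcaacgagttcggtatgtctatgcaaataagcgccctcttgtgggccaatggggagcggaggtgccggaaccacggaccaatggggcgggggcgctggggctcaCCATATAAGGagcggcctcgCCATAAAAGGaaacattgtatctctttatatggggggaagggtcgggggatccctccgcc
NR4A3: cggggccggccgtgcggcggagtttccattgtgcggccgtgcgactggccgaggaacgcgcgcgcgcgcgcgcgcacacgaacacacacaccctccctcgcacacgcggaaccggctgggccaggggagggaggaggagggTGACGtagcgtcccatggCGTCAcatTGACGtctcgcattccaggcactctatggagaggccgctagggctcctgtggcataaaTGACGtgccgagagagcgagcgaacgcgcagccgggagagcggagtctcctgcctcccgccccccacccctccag
CSRNP1: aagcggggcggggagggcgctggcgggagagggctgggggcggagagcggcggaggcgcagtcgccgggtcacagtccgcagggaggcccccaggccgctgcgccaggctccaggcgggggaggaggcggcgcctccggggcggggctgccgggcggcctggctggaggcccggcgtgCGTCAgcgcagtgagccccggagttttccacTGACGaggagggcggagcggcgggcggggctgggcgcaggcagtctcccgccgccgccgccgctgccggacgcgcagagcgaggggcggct

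EGR1 had 2 CArG boxes, whose first bases lay at -105 and -83 from the start, and EGR2 had 1 at -71. SRF had 2, at -30 and -10, together with an ETS core (CCGGAA) at -70 and an EGR site (GCGGGGGCG) at -49 that overlapped an SP1 site (GGGCGG) at -51. All 3 genes also had the short cyclic AMP element, as did NR4A3 with 4 matches, CSRNP1 with 2 and IER2 with 1. The CSRNP1 window had 7 SP1 sites and no CArG box. IER2 had an ETS core at -26 and 4 SP1 sites, and the first NR4A1 window had an ETS core at -17. The NR4A1 windows (chr12:52022582-52022881 and chr12:52037465-52037764) lie further apart than the 8097 bases spanned by the measured NR4A1 entry. They cannot both be its start. The measured entries have hg19 coordinates, and whether a window belongs to the start of the measured entry was not checked for any gene.

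Both strands were searched, and of all 35116 RefSeq windows 1.29% held a CArG box, 24.6% TGACG, 17.2% CCGGAA, 5.07% GCGGGGGCG and 45% GGGCGG. The other motifs searched were TGACGTCA (1.85% of windows) and GCGTGGGCG (0.795%), each with no match in these windows, AAAGGTCA (1.22%), likewise with none, and TATAAA (11.5%), with 1 match, in SRF. The short element TGACG is contained in TGACGTCA. A match is a string of letters, not a measured binding site, and no match says only that these letters are not in the window.

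**Figure D1:**
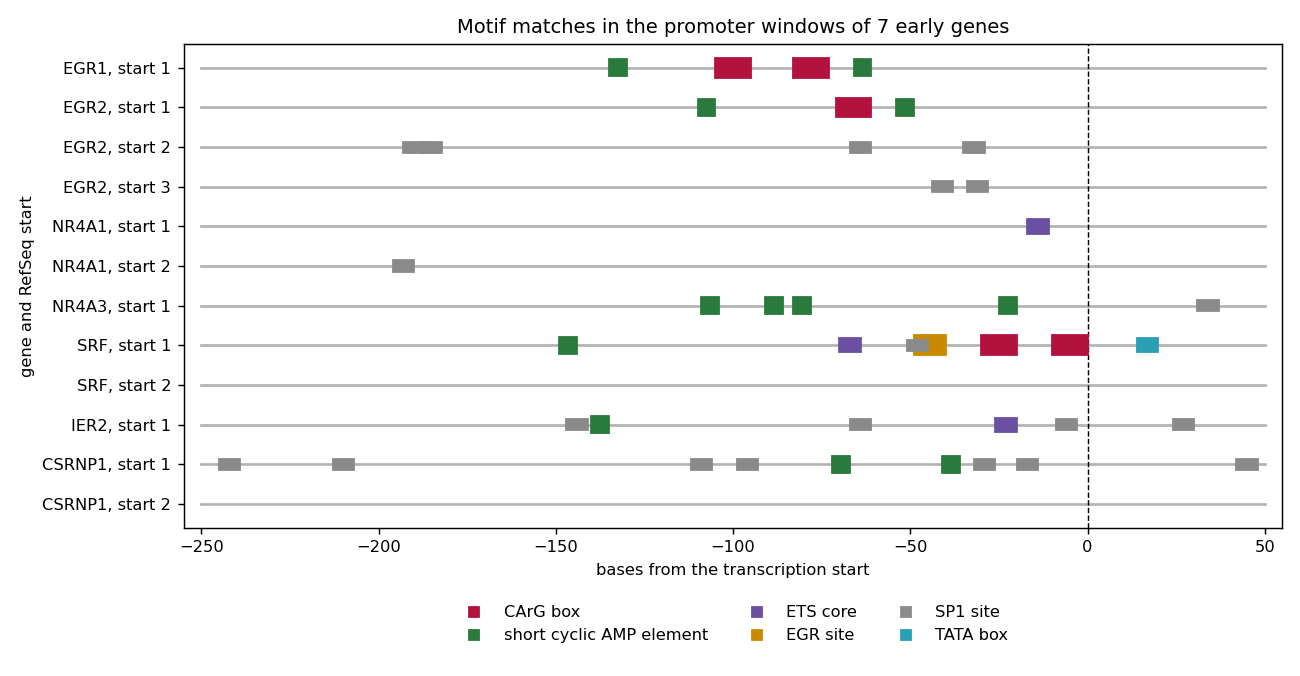
Motif matches in the 12 RefSeq promoter windows of 7 genes; the horizontal axis is the distance in bases from the transcription start, each row is 1 start, and coloured boxes are matches on either strand. CArG boxes lie in the windows of EGR1, EGR2 (start 1) and SRF (start 1), whereas short cyclic AMP elements also lie in those of NR4A3, IER2 and CSRNP1.

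Levels after EGF for 1 h stood above the other 6 conditions in nearly the whole group. The library with the highest level was that of EGF for 1 h for 10 of 10 genes in Panc-1 and for 9 of 10 in AsPC-1, NR4A2 being the exception. The margin over the next library varied: it was 8.81 times in Panc-1 and 3.28 times in AsPC-1 for EGR1. It was only 1.47 and 1.20 times for SRF and 1.33 and 1.03 times for IER3. NR4A3 in AsPC-1 (0.26 against 0.19 RPKM) and NR4A2 in Panc-1 (0.49 against 0.33 RPKM) were close at levels of few reads. Among the 13427 genes tested below, 20.6% had their highest level in that library in Panc-1, 9.6% in AsPC-1 and 1.96% in both lines, against 9 of these 10. The sets differ: EGR2 and NR4A3 are not among the tested genes, and EGR3 is among them only through its EGF 1 h libraries. Basal levels differed widely: in the mock libraries IER3 was the most abundant of the 10, at 112 RPKM in Panc-1 and 199 in AsPC-1, and EGR2, EGR3 and NR4A3 were at 0.29 RPKM or less.

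**Figure D2:**
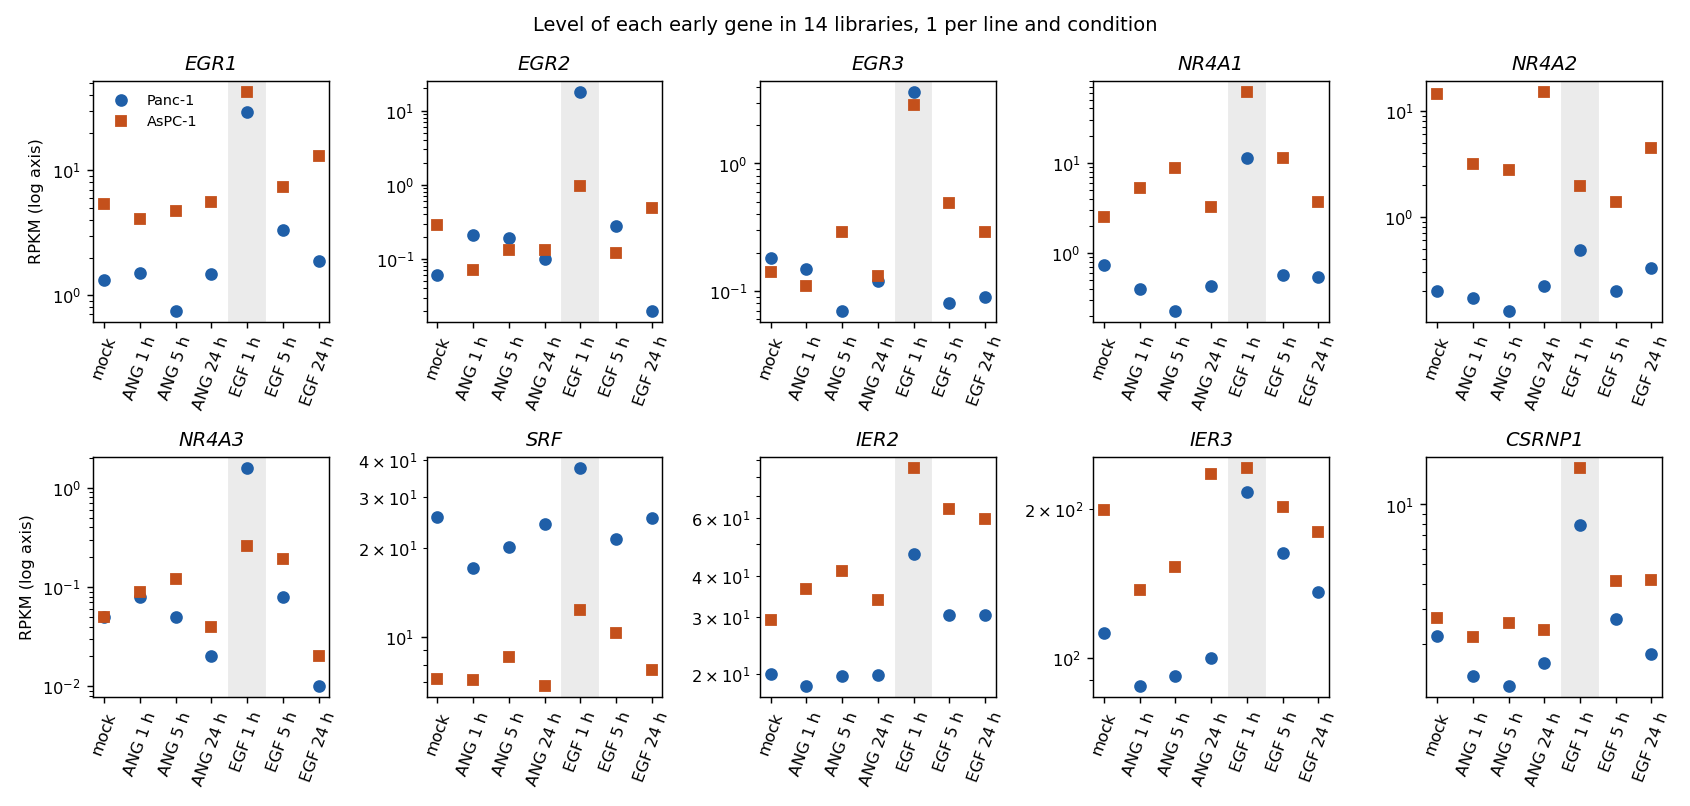
RPKM (log axis) of each of the 10 genes in the 14 libraries, 1 library per line and condition, with 1 panel per gene and the EGF 1 h condition shaded. The shaded points are the highest of 7 in both lines for every gene but NR4A2, whose AsPC-1 level was highest after ANG for 24 h (15.1 RPKM).

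EGR1 (hg19, chromosome 5, 137801181 to 137805004, plus strand) is the most studied of the EGR factors. In Panc-1 its level was 1.32 RPKM in mock, 1.49, 0.75 and 1.47 after ANG for 1, 5 and 24 h, and 29.1, 3.30 and 1.88 after EGF for the same times. In AsPC-1 it was 5.40 in mock, 4.07, 4.73 and 5.61 after ANG, and 42.4, 7.33 and 12.9 after EGF. The ANG libraries thus lay around the mock of their line, and all 3 EGF libraries above it, in both lines. The second highest AsPC-1 level was that at 24 h of EGF, whereas the second highest Panc-1 level was that at 5 h.

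EGR2 and EGR3 are the EGR1 relatives known for roles in myelinating glia and in lymphocytes. EGR2 (chromosome 10, 64571756 to 64578927, minus strand) lay at 0.06 RPKM in Panc-1 mock, 0.21, 0.19 and 0.10 after ANG, and 17.9, 0.28 and 0.02 after EGF. In AsPC-1 it reached 0.95 RPKM after EGF for 1 h, against 0.29 in mock, 0.07 to 0.13 after ANG and 0.12 and 0.49 after EGF for 5 and 24 h. With a transcript of 2 kb, these EGF 1 h levels would be 543.5 reads in Panc-1 and 40.2 in AsPC-1, and the Panc-1 mock level 1.9 reads. The high EGR2 level was therefore a feature of 1 library, and the ratio to mock is not given because the mock value rests on so few reads.

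The EGR3 levels after EGF for 1 h were similar in both lines. In Panc-1 it lay at 0.18 RPKM in mock, 0.07 to 0.15 after ANG, and 3.64, 0.08 and 0.09 after EGF for 1, 5 and 24 h. In AsPC-1 it lay at 0.14 in mock, 0.11 to 0.29 after ANG, and 2.86, 0.49 and 0.29 after EGF. Outside the EGF 1 h libraries no EGR3 value exceeded 0.49 RPKM.

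NR4A1 (chromosome 12, 52445191 to 52453287, plus strand), also known as Nur77, was the most abundant NR4A gene after EGF for 1 h. In Panc-1 it lay at 0.74 RPKM in mock, 0.40, 0.23 and 0.43 after ANG, and 11.3, 0.57 and 0.55 after EGF for 1, 5 and 24 h. In AsPC-1 it lay at 2.51 in mock, 5.22, 8.68 and 3.22 after ANG, and 61.0, 11.2 and 3.70 after EGF. The 3 ANG libraries lay above mock in AsPC-1 and below it in Panc-1, and EGF exceeded ANG in 6 of 6 pairs of the same line and time. RefSeq places non-coding genes over NR4A1, and whether the counting used strand is not given in the sources used here, so reads of an antisense transcript could be included.

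NR4A2 (chromosome 2, 157180944 to 157189287, minus strand), also known as Nurr1, was lower in the AsPC-1 libraries of 1 and 5 h than in mock. There it lay at 14.5 RPKM in mock, 3.18, 2.79 and 15.1 after ANG for 1, 5 and 24 h, and 1.96, 1.37 and 4.50 after EGF. In Panc-1 it lay between 0.13 and 0.49 RPKM in all 7 libraries, lowest after ANG for 5 h and highest after EGF for 1 h. The AsPC-1 values at 1 and 5 h were 0.22 and 0.19 times mock after ANG and 0.13 and 0.09 times mock after EGF, so they were low with either ligand. Those 4 AsPC-1 libraries also differed widely from mock at other genes: on the log2(RPKM + 1) scale, 10.9% of tested genes were at least 2-fold lower than mock after ANG for 1 h and 12% after EGF for 1 h, and the part of this shift in the NR4A2 values was not tested.

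NR4A3 (chromosome 9, 102584137 to 102629173, plus strand), or NOR-1, had the lowest mock levels of the 10. It lay at 0.05 RPKM in Panc-1 mock, 0.02 to 0.08 after ANG, and 1.59, 0.08 and 0.01 after EGF for 1, 5 and 24 h. In AsPC-1 its level was 0.26 RPKM after EGF for 1 h, 0.19 after 5 h, 0.02 after 24 h, 0.05 in mock and at most 0.12 after ANG. As for EGR2, only the Panc-1 library of EGF for 1 h reached 1 RPKM.

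SRF (chromosome 6, 43138920 to 43149244, plus strand) had a high basal level and a narrow range. In Panc-1 it lay at 25.6 RPKM in mock, 17.1, 20.2 and 24.2 after ANG, and 37.7, 21.5 and 25.3 after EGF. In AsPC-1 it lay at 7.19 in mock, 7.13, 8.51 and 6.77 after ANG, and 12.4, 10.3 and 7.67 after EGF. Its highest level was 2.20 times its lowest in Panc-1 and 1.83 times in AsPC-1, against 38.8 and 10.4 times for EGR1.

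IER2 (chromosome 19, 13261282 to 13265718, plus strand) had high levels at all 3 times of EGF. Its Panc-1 level was 20.0 RPKM in mock, 18.4, 19.8 and 20.0 after ANG, and 46.6, 30.4 and 30.2 after EGF for 1, 5 and 24 h. Its AsPC-1 level was 29.2 in mock, 36.4, 41.4 and 33.8 after ANG, and 85.3, 63.9 and 59.5 after EGF. In each line the 3 EGF libraries were above the 4 others, and the share of all tested genes with this order was not counted.

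IER3 (chromosome 6, 30710976 to 30712327, minus strand) had the highest levels of the 10 genes. In Panc-1 it lay at 112 RPKM in mock, 87.5, 91.7 and 99.9 after ANG, and 217, 163 and 136 after EGF. In AsPC-1 it lay at 199 in mock, 137, 153 and 235 after ANG, and 242.5, 202 and 180 after EGF, so that the ligands overlapped there. RefSeq places the antisense gene IER3-AS1 over IER3, whose reads cannot be told apart from its own without strand.

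CSRNP1 (chromosome 3, 39183342 to 39195102, minus strand) had its highest level after EGF for 1 h in both lines. The Panc-1 level was 2.18 RPKM in mock, 1.37, 1.22 and 1.59 after ANG, and 7.87, 2.66 and 1.78 after EGF. The AsPC-1 level was 2.68 in mock, 2.16, 2.54 and 2.34 after ANG, and 15.3, 4.13 and 4.18 after EGF. Every ANG library was below the mock of its line, and every EGF library was above the ANG library of the same line and time. In log2(RPKM + 1), CSRNP1 after ANG lay at -0.42, -0.52 and -0.30 from mock in Panc-1 and -0.22, -0.06 and -0.14 in AsPC-1. The median of all tested genes was below mock as well, at -0.07, -0.09 and -0.12 in Panc-1 and -0.14, -0.18 and -0.06 in AsPC-1. A non-coding gene overlaps CSRNP1 in RefSeq.

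EGF and ANG were first compared at the same time. The differences use no mock library, although the mock libraries, like all 14, enter their errors through the shared spread. The doses differ, 50 ng/ml of EGF and 1 µg/ml of ANG, so the comparison is of these treatments. The tests were limma fits to log2(RPKM + 1), for the 13427 genes that reached 1 RPKM in 2 or more libraries, with lines and conditions in 1 fit and adjusted p-values (Benjamini-Hochberg, threshold 0.05) over all of them. Of the 10 genes 8 entered the test. EGR2 and NR4A3 did not, and EGR3 entered only through its EGF 1 h libraries, so a difference in it was built into the filter. Where EGR3 is among the genes passing a test, the count is also given without it, except in the closing section. Counts of orderings and of single libraries are over all 10 genes, with EGR2, EGR3 and NR4A3 included, while the shares beside them are over the 13427 tested genes.

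At 1 h, EGR1, EGR3 and CSRNP1 were higher after EGF than after ANG. The limma difference in log2(RPKM + 1) was 3.35 ± 0.36 (SE, n = 2 lines; adjusted p = 0.0498) for EGR1, 1.91 ± 0.18 (adjusted p = 0.0275) for EGR3 and 2.14 ± 0.19 (adjusted p = 0.0275) for CSRNP1. These were 3 of 8 genes tested, or 2 of 7 without EGR3, and the only 3 called higher among all 13427 genes (0.0223%), with 0 called lower. As ratios of RPKM, EGF stood 19.5 times above ANG in Panc-1 and 10.4 times in AsPC-1 for EGR1, and 5.74 and 7.08 times for CSRNP1. All 3 limma calls are lost with a pseudocount of 0.1 (adjusted p = 0.189 for EGR1, 0.328 for EGR3 and 0.0534 for CSRNP1), with each library centred on its median and without the 24 h libraries. None of the fits that left out 1 of the 4 libraries compared kept all 3 calls, and each leaves a condition with 1 library. EGR3 stayed in the fits without an EGF 1 h library only because the filter used all 14 libraries. Its result there is no check of its call.

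The other 5 tested genes did not pass at 1 h. NR4A1 had one of the largest differences, 3.22 ± 0.46 (limma adjusted p = 0.204), with EGF at 28.2 times the ANG level in Panc-1 and 11.7 times in AsPC-1. IER2 differed by 1.25 ± 0.15 (adjusted p = 0.0762), IER3 by 1.06 ± 0.24 and SRF by 0.91 ± 0.20 (adjusted p = 1 for both), and NR4A2 by -0.07 ± 0.70 (adjusted p = 1). Before adjustment, 7 of the 8 (6 of 7 without EGR3) had p under 0.05, as had 179 of the 13427 genes. In the fit without a filter, EGR2 differed by 2.42 ± 0.81 and NR4A3 by 0.74 ± 0.26 (adjusted p = 1 for both).

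Taken library by library, with no test, the pattern was broader in Panc-1. There, 9 of the 10 genes were at least 2-fold higher in RPKM + 1 after EGF than after ANG for 1 h, where 0.484% of tested genes were, with NR4A2 the exception. In AsPC-1 this held for 5 of the 10, EGR1, EGR3, NR4A1, IER2 and CSRNP1, and for 0.521% of tested genes. Genes with a span under 400 bp took 5.11% of reads after EGF and 10.0% after ANG for 1 h in Panc-1, and 12.6% and 15.5% in AsPC-1. The part of this imbalance in the RPKM differences was not tested.

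**Figure D3:**
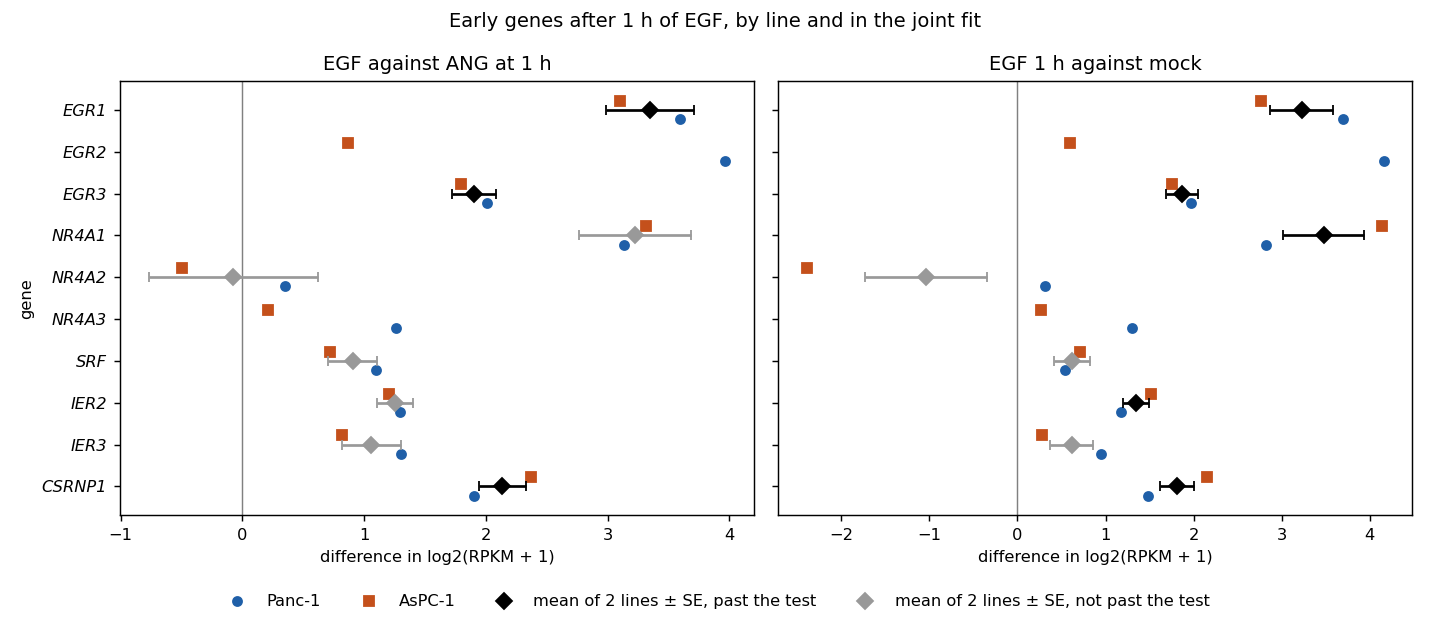
Difference in log2(RPKM + 1) of EGF for 1 h from mock and from ANG for 1 h, by gene; coloured points are single lines, diamonds are the limma estimate over 2 lines with its standard error, black where past the test and grey where not, and the 2 genes without a diamond were not tested. EGR1 stands at 3.23 ± 0.36 against mock and 3.35 ± 0.36 against ANG, and NR4A2 is the only tested gene whose estimate is below 0 in both.

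Against mock, EGR1, EGR3, NR4A1, IER2 and CSRNP1 rose after EGF for 1 h. EGR1 rose by 3.23 ± 0.36 and EGR3 by 1.87 ± 0.18 (limma adjusted p = 0.0259 for each), and NR4A1 by 3.48 ± 0.46 (adjusted p = 0.0315, or 0.0503 with a pseudocount of 0.1). IER2 rose by 1.35 ± 0.15 and CSRNP1 by 1.81 ± 0.19 (adjusted p = 0.0259 for each). These were 5 of 8 genes tested, or 4 of 7 without EGR3, where 0.209% of all tested genes were called higher and 0.454% lower. SRF (0.62 ± 0.20, adjusted p = 0.173), IER3 (0.61 ± 0.24, adjusted p = 0.245) and NR4A2 (-1.04 ± 0.70, adjusted p = 0.477) did not pass. Library by library, with no test, 7 of the 10 genes were at least 2-fold above mock in Panc-1, where 3.37% of tested genes were. In AsPC-1 5 were above it, where 5.23% of tested genes were, and NR4A2 was below it. The median of all tested genes was -0.12 in this comparison and 0.01 in that of EGF with ANG.

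The calls against mock depend on the 24 h libraries, which enter through the shared spread, its degrees of freedom and the adjustment over genes. Without them 0 of the 8 genes passed, each of the 5 having a limma adjusted p of 0.0729 with its estimate unmoved. The SE then fell for EGR1 and CSRNP1 and rose for EGR3, NR4A1 and IER2, and what the loss came from was not tested. Leaving out any of the 4 libraries compared also left 0 calls. Estimates then ranged from 2.76 to 3.70 for EGR1, from 2.85 to 4.11 for NR4A1 and from 1.15 to 1.55 for IER2.

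ANG against mock called none of the 8 tested genes at 1, 5 or 24 h in the limma fit, and none had an unadjusted p under 0.05, which 2062, 2391 and 202 of the 13427 genes had at these times. These comparisons share their mock libraries with those of EGF. Called genes among all 13427 made up 0.0819% at 1 h, 0.112% at 5 h and 0% at 24 h, and all were lower. At 1 h the 95% interval of the difference was -0.94 to 0.71 for EGR1, -0.45 to 0.37 for EGR3, -0.80 to 1.31 for NR4A1, -0.24 to 0.43 for IER2 and -0.77 to 0.12 for CSRNP1. Each upper bound lies below the EGF estimate of the same gene, but that estimate has its own error and uses the same mock libraries. This is therefore no test between the ligands. The direct comparison at 1 h, given above, called EGR1, EGR3 and CSRNP1 but not NR4A1 or IER2. For NR4A2 the interval, -2.56 to 0.63, was too wide to separate a fall from no change.

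Some of the genes differed between the lines under ANG, among them NR4A2 (described above), NR4A1 and IER2. NR4A1 in AsPC-1 stood at 2.08 times mock after 1 h of ANG and 3.46 times after 5 h, while in Panc-1 it lay at 0.40 and 0.23 RPKM against 0.74 in mock. The mock-based values of a line share 1 library, so these have no test. IER2 in AsPC-1 lay at 36.4 and 41.4 RPKM after ANG for 1 and 5 h against 29.2 in mock, and in Panc-1 at 18.4 and 19.8 against 20.0. In AsPC-1, 4.77% of tested genes were at least 2-fold above mock in RPKM + 1 after ANG for 1 h, and 5% after 5 h. NR4A1 was among them at 5 h but not at 1 h. How many tested genes lay on opposite sides of mock in the lines was not counted.

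At 5 h of EGF the levels of most of these genes lay closer to mock than at 1 h. Compared with EGF for 5 h, EGF for 1 h was higher by 2.59 ± 0.36 for EGR1, 1.74 ± 0.18 for EGR3, 2.65 ± 0.46 for NR4A1 and 1.47 ± 0.19 for CSRNP1, but limma called 0 of the 8 genes and 0% of all genes (adjusted p = 0.335, 0.112, 1 and 0.335). Of the 8, 6 (5 of 7 without EGR3) had an unadjusted p under 0.05, as had 196 of all genes tested. Compared with EGF for 24 h, EGR3 (1.84 ± 0.18, adjusted p = 0.0258) and CSRNP1 (1.66 ± 0.19, adjusted p = 0.0354) were higher at 1 h, 2 of 8 genes tested or 1 of 7 without EGR3, where 0.0149% of all genes were called higher and 0.0447% lower. Both calls are lost with a pseudocount of 0.1 or with centred libraries. NR4A1 (3.35 ± 0.46, adjusted p = 0.0664) and EGR1 (2.51 ± 0.36, adjusted p = 0.0704) missed the threshold.

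IER2 was the only one of the 8 called higher after EGF for 5 h than in mock (0.84 ± 0.15, limma adjusted p = 0.0262), where 0.596% of tested genes were higher and 3.63% lower. This call is lost without the 24 h libraries (limma adjusted p = 0.0539) and when any 1 of the 4 libraries compared is left out (adjusted p of 0.0801 to 0.203). At 24 h its difference from mock was 0.79 ± 0.15 (adjusted p = 0.68), in a comparison where 0% of genes were called. EGR1 differed from mock by 0.63 ± 0.36 at 5 h (adjusted p = 0.328) and by 0.72 ± 0.36 at 24 h (adjusted p = 0.694). The change from 1 to 5 h was compared between ligands as an interaction, in which limma called 0 of 8 genes and 0% of all genes, with 6 of 8 (5 of 7 without EGR3) and 61 of 13427 at an unadjusted p under 0.05.

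EGF also stood above ANG at the later times for several of the genes, without passing the test at a single time. At 5 h the differences were 0.92 ± 0.36 for EGR1, 0.61 ± 0.15 for IER2, 0.61 ± 0.24 for IER3 and 0.63 ± 0.19 for CSRNP1 (limma adjusted p = 1 for each, with unadjusted p under 0.05 for these 4 and for 233 of all genes). At 24 h the difference was 0.69 ± 0.15 for IER2 and 0.65 ± 0.36 for EGR1 (adjusted p = 1 for each). At both times 0% of genes were called, and IER2 alone of the 8 had an unadjusted p under 0.05 at 24 h, as had 549 of all genes.

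Averaged over the 6 pairs of line and time, IER2 was higher after EGF than after ANG, by 0.85 ± 0.11 (SE, n = 6 pairs; limma adjusted p = 0.0382), and higher in 6 of 6 pairs. The fit treats pairs of the same line at different times as repeats, although they are not independent. Its SE and p-value therefore measure spread across times as well as lines, not across biological repeats. IER2 was 1 of 8 genes tested, where 0.142% of all genes were called higher and 0.0149% lower. EGR1 (1.64 ± 0.44, adjusted p = 0.169), CSRNP1 (1.04 ± 0.28, adjusted p = 0.173) and NR4A1 (1.23 ± 0.49, adjusted p = 0.278) had larger means but differed more between times. In both lines EGF exceeded ANG for 9 of the 10 genes at 1 h, where 28.9% of tested genes did so, and for 8 of the 10 at 5 h, where 24.5% did. The 8 include EGR3 and NR4A3, which in Panc-1 at 5 h lay at 0.08 against 0.07 and 0.08 against 0.05 RPKM. With a transcript of 2 kb these would be 1.79 against 1.83 and 1.79 against 1.31 reads, too few to order the ligands. The direction was the same in 6 of 6 pairs for 5 of the 10 genes, EGR1, NR4A1, SRF, IER2 and CSRNP1, and for 5.62% of tested genes. The IER2 call is lost when any 1 of the 12 libraries is left out, with no filter, and with no variance trend.

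**Figure D4:**
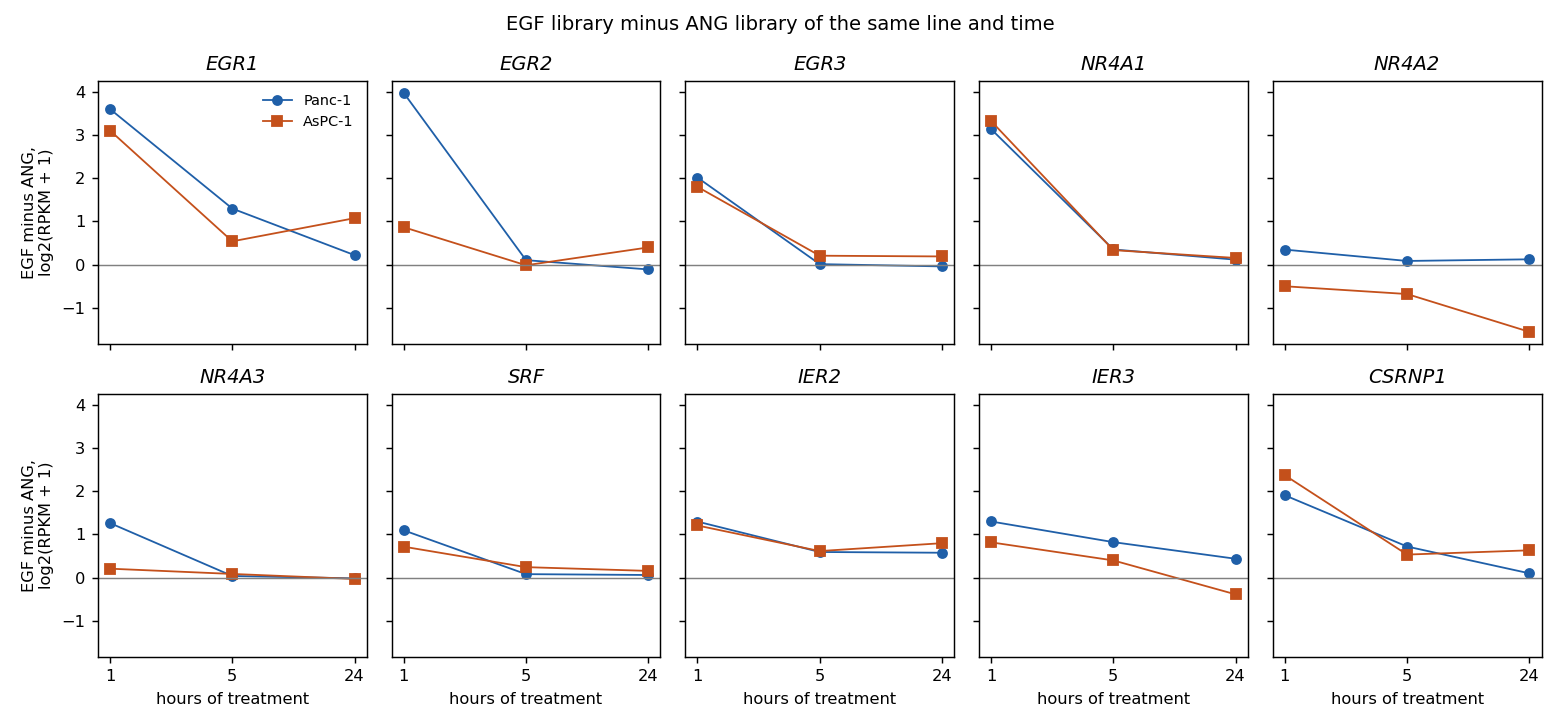
EGF library minus ANG library of the same line and time, in log2(RPKM + 1), against hours of treatment, 1 panel per gene and 1 line per cell line. IER2 stays above 0 at all 3 times in both lines, EGR1 drops steeply after 1 h, and NR4A2 lies above 0 in Panc-1 and below 0 in AsPC-1.

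The lines themselves differed in level at 7 of the 8 tested genes, in a background where 68.8% of all genes were called. Averaged over the 7 conditions, AsPC-1 was higher at 6 of the 8, where 29.3% of all genes were, and lower at 1, where 39.6% were. The fit treats the 7 conditions of a line as repeats, although they are not independent. Its SE and p-values therefore measure spread across conditions of these lines, not across biological repeats. The largest differences were in NR4A2 (2.15 ± 0.37, limma adjusted p = 8.67e-04) and NR4A1 (2.09 ± 0.25, adjusted p = 7.86e-05), each higher in AsPC-1 in 7 of 7 conditions. EGR1 was higher there by 1.34 ± 0.19 (adjusted p = 2.74e-04), IER2 by 0.87 ± 0.08 (adjusted p = 1.48e-05), IER3 by 0.61 ± 0.13 (adjusted p = 0.0026) and CSRNP1 by 0.56 ± 0.10 (adjusted p = 0.00128).

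SRF was the gene that was lower in AsPC-1, by -1.41 ± 0.11 (limma adjusted p = 5.41e-06), and the Panc-1 range of 17.1 to 37.7 RPKM did not overlap that of AsPC-1, 6.77 to 12.4. How many of all tested genes had ranges apart, or the same order of the lines in every condition, was not counted. EGR3 differed by 0.09 ± 0.10 (adjusted p = 0.432). LYZ and LUM were also high in AsPC-1 alone, and their part in these level differences was not tested. The ligand difference itself was compared between lines over the pairs, and limma called 0 of 8 genes and 0% of all genes, NR4A2 alone of the 8 having an unadjusted p under 0.05, as had 1040 of the 13427 genes.

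The rest of the immediate-early programme was read from a list of 33 other genes, 32 of them tested. After EGF for 1 h, 4 of 32 were higher than in mock and 0 lower: the AP-1 subunits FOSB (3.64 ± 0.59, limma adjusted p = 0.0438), FOSL1 (2.39 ± 0.41, adjusted p = 0.0499) and JUN (2.01 ± 0.32, adjusted p = 0.0438), and the kinase PLK3 (1.73 ± 0.21, adjusted p = 0.03). Of these 4 calls 0 were kept without the 24 h libraries, 0 or 1 (FOSB) when 1 of the 4 libraries compared was left out, and 1 (PLK3) with a pseudocount of 0.1, no filter or centred libraries. The median of the list was 1.01 against -0.12 for all genes. Against ANG at 1 h its median was 0.79, with 0.01 for all genes, and 0 of 32 were called. FOS itself went from 0.59 RPKM in mock to 5.95 in Panc-1 and from 10.3 to 23.6 in AsPC-1 after EGF for 1 h, and lay at 0.82 and 5.11 after ANG, a difference between ligands of 1.97 ± 0.42 (adjusted p = 0.932).

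Later, the list was called in part. At 5 h of EGF, FOSL1 (2.17 ± 0.41, limma adjusted p = 0.0319), JUN (1.49 ± 0.32, adjusted p = 0.0426) and PLK3 (0.93 ± 0.21, adjusted p = 0.0485) were above mock, and BTG2, an antiproliferative early gene, was below it (-0.98 ± 0.20, adjusted p = 0.0391). These 4 calls were lost with centred libraries or with any 1 of the 4 libraries left out, 2 of them (BTG2 and JUN) were kept without the 24 h libraries and 1 (FOSL1) with no filter. Over the 6 pairs of EGF and ANG, 2 of 32 were higher after EGF, FOSL1 (0.91 ± 0.09, adjusted p = 0.0193) and MCL1, an antiapoptotic gene (0.91 ± 0.12, adjusted p = 0.0408). Here too, pairs of the same line at different times are not independent. Both calls were lost with no filter, MCL1 also with centred libraries, no variance trend or any 1 of the 12 libraries left out. FOSL1 was lost when any 1 of the 6 Panc-1 libraries or an AsPC-1 library of 5 h was left out. ANG for 1 h called 0 of the 32 against mock, with a median of 0.01.

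The signalling and cofactor lists did not pass the test for any gene at 1 h of either ligand. Of the 12 kinases of the ERK relay with CREB1, 0 were called, and the median was -0.14 for EGF against mock and 0.07 for EGF against ANG. The 7 tested cofactors of SRF and EGR had medians of -0.07 and 0.04, and the 11 cytoskeletal targets of SRF 0.59 and 0.31. For all genes these medians were -0.12 and 0.01. For ANG at 1 h against mock the median was -0.19 for the kinases with CREB1, -0.08 for the cofactors and 0.35 for the cytoskeletal targets. That of all genes was -0.13. Named after their values were seen, EGR4 and the EGR corepressor NAB2 were high in Panc-1 after EGF for 1 h: EGR4 at 8.30 RPKM against 0.13 in mock and 0.15 after ANG, and NAB2 at 26.4 against 8.35 and 5.16. In AsPC-1 EGR4 reached 0.98 RPKM and NAB2 lay at 10.3, against 13.5 in mock and 8.43 after ANG. NAB2 did not pass between ligands at 1 h (1.21 ± 0.51, limma adjusted p = 1), and EGR4 was below the filter.

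Likeness of pattern was described as Pearson's r of log2(RPKM + 1), centred within each line, over the 14 libraries. It was taken for 10819 tested genes with a mean of at least 1 RPKM. Symbols of unnamed loci (such as LOC, LINC, FLJ, KIAA, FAM and open reading frames), microRNAs, and small nucleolar and Cajal body RNAs had been left out. For EGR1 the highest were CSRNP1 (r = 0.95), FOS (0.93), FOSB (0.91), MAFF (0.90) and PLK3 (0.89). For NR4A1 they were ITPKC (0.95), JUND (0.95), KDM6B (0.94), SERTAD1 (0.93) and KLF10 (0.92). For SRF they were BHLHE40 (0.94), ZFP36 (0.93), NR4A1 (0.89), ITPKC (0.87) and MIDN (0.86). The points share libraries and depth, and the EGF 1 h libraries are the highest 2 of the 14 for all 3 genes after centring, so these values carry no p.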

How the data were processed

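RNA sequencing of 14 libraries, 7 conditions in each of 2 cell lines, was read from files that list 23040 genes with hg19 coordinates. The values are log2 RPKM computed by the authors, per the file headers, and the submitters' processing notes name hg19 as the build. For the aligner, counting tool, annotation and use of strand, nothing is given in the sources used here. Groups came from the sample titles, with 1 library per line and condition.

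Values were turned back to RPKM, with the floor at log2 -8.966 taken as 0. Steps of genes spanning at most 150 bp were whole multiples of 1 read, within 0.1, for 98.0 to 100% of values and gave the depths. The files give no transcript lengths, so read counts were not recovered and the count test foreseen for count tables was not used. Differences are on the log2(RPKM + 1) scale (pseudocount 1), which understates changes of low genes.

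The 13427 genes that reached 1 RPKM in 2 or more libraries were tested in limma 3.58.1 (R 4.3.3), with a variance trend and Benjamini-Hochberg adjustment over all of them. The additive fit of line and condition had 6 residual degrees of freedom, and its spread is the disagreement of the lines. Between the lines it takes the 7 conditions as repeats, which are not independent. The pairs fit had 5. It takes pairs of the same line at different times as repeats, which are not independent, so its spread includes differences between times. The procedure was tested on simulated data. Alternatives were a pseudocount of 0.1, no filter (19783 genes), a mean of at least 5 RPKM (9138 genes), libraries centred on their median, no variance trend, leaving out each library in turn and leaving out the 24 h libraries.

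The 10 genes, the gene lists and the tests were chosen with earlier results of these data known. Beyond the 10 genes, the text names up to 3 genes per list and comparison with the largest change among those past the threshold. It also names FOS and the 5 genes most like EGR1, NR4A1 and SRF, with symbols of unnamed loci and small RNAs left out. Where 4 were called, at 1 and 5 h of EGF, the remaining gene (PLK3 in both) is named too, and with EGR4 and NAB2 it was named after its values were seen.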

Additional observations from a re-analysis of the deposited data

Results flagged for a closer look

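NR4A2 drew attention because EGF and ANG were ordered oppositely in the lines. How many of all tested genes were so ordered was not counted. EGF minus ANG in log2(RPKM + 1) was 0.35, 0.09 and 0.12 at 1, 5 and 24 h in Panc-1 and -0.50, -0.68 and -1.55 in AsPC-1, a difference between the line means of -1.10. In the limma interaction over the 6 pairs this was -1.10 ± 0.27 (adjusted p = 0.545), and the Panc-1 level never exceeded 0.49 RPKM.

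NR4A1, IER2 and EGR2 drew attention because ANG stood on opposite sides of mock in the lines at all 3 times. The 3 values of a line share 1 mock library and are not independent, and the difference between lines was not tested. How many of all tested genes had such opposite sides was not counted. For NR4A1, ANG minus mock was -0.31, -0.50 and -0.28 in Panc-1 and 0.83, 1.46 and 0.27 in AsPC-1, so that the line means differed by 1.22. The corresponding difference was 0.38 for IER2, positive in AsPC-1, and -0.35 for EGR2, whose levels in these libraries were all at or under 0.29 RPKM.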

How the results depend on the processing

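The main limit is the single library per line and condition. Counts in this section include EGR3 where it passed. Of the 8 genes tested, 5 passed for EGF for 1 h against mock, 4 with a pseudocount of 0.1 (NR4A1 lost), 3 with a mean of at least 5 RPKM (5 of the 8 tested) and 0 without the 24 h libraries. IER2 was the 1 gene called for EGF for 5 h against mock, and 0 were called without the 24 h libraries. For EGF against ANG at 1 h the 3 calls became 1 with no filter and 0 with a pseudocount of 0.1, a mean of at least 5 RPKM, centred libraries or no 24 h libraries. For EGF for 1 h against 24 h the 2 calls became 1 with no filter and 0 with a pseudocount of 0.1, a mean of at least 5 RPKM or centred libraries. The 1 call over the 6 pairs became 0 with no filter or no variance trend. The cause was not tested, apart from EGR3 and other genes being absent from the test at a mean of at least 5 RPKM.

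Leaving out 1 library at a time gave 0 to 0 calls for EGF for 1 or 5 h against mock, for EGF for 1 h against 24 h and for the pairs, 0 to 2 for EGF against ANG at 1 h, and 7 to 7 between the lines. A condition left with 1 library is assumed to vary like the others. The filter used all 14 libraries in these fits, so EGR3 stayed in them also without an EGF 1 h library. The comparisons with 0 calls kept 0 in each alternative. Called genes kept their direction throughout. NR4A2 for EGF against ANG at 1 h, -0.07 as reported, turned to 0.23 with a pseudocount of 0.1, to 0.11 without the Panc-1 ANG library and to 0.60 without the AsPC-1 EGF library, in a range of -0.75 to 0.60 when 1 library is left out. Low levels of EGR2, EGR3 and NR4A3 rest on few reads, and no ratio to them is given.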
